A study of Mus musculus with 8 samples.

Results

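The nuclear-encoded genes of the respiratory chain were followed through the T cells of the mouse meninges and the non-immune cells of the mouse hippocampus. They were chosen by symbol, as the genes named Nduf (families a, b, c, s and v), Sdha to Sdhd, Uqcr, Cox4 to Cox8 with a subunit letter, and Atp5. This gave 82 of the 55367 symbols in the gene tables, with 35 genes of complex I, 4 of complex II, 8 of complex III, 18 of complex IV and 17 of complex V. The rule does not take Cox4i1, Cox4i2, Cyc1, Cycs, Ndufab1 or Ndufa4l2, whose values are given beside their relatives.

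The respiratory chain sits in the inner mitochondrial membrane. Complexes I and II pass electrons from NADH and succinate to ubiquinone, complex III passes them to cytochrome c, and complex IV, cytochrome c oxidase, passes them to oxygen, while complexes I, III and IV pump protons and complex V uses the proton gradient to make ATP. Most subunits are encoded in the nucleus and are assembled with a small set made from mitochondrial DNA. Several small subunits of complex IV exist as isoform pairs with a widely used form and another form known from heart and skeletal muscle, testis or cells that respond to low oxygen.

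Droplet single-cell RNA sequencing counted unique molecular identifiers (UMIs), 1 for each captured transcript molecule. The meninges gave 2 replicates of sorted CD45+ CD3+ CD4+ T cells, replicate 1 from Foxp3-GFP mice, which report the regulatory T cell factor Foxp3, and replicate 2 from B6.WT mice, with no treatment given for either. The hippocampus gave 2 libraries of sorted CD45- Thy1- cells, the DTRneg library from Foxp3-DTR- mice and the DTRpos library from Foxp3-DTR+ mice, which carry the diphtheria toxin receptor under Foxp3. Both groups received diphtheria toxin, and each library pooled 2 mice.

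After filtering, 1661 and 3413 meningeal cells and 6863 and 5691 hippocampal cells remained, with median depths of 2958, 1616, 6003 and 4509 UMIs. Cells were placed by UMIs of marker genes, giving 7 T-cell states (39 to 1198 cells per replicate) and 7 hippocampal classes (42 to 3769 cells per library). The hippocampal libraries are labelled as neurons and glia, but no cell met the rule for neurons, in cells sorted without Thy1. Of genes not used to place cells, Neu4 was at 396 counts per 1000000 UMIs (CPM) in the OPC-like class of both libraries, the highest of the 7 hippocampal classes, and Klf2 and Tnfrsf18 were highest in naive-like and Treg-like cells in both replicates. Id2, checked for Th1-like cells, was higher in the NK receptor state (2046 and 1129 CPM against 1580 and 973 CPM), and Izumo1r, checked for Tfh-like cells, was higher in Treg-like cells in replicate 2 (569 against 550 CPM). The smallest class was choroid plexus-like, with 179 cells in the DTRneg library and 42 in the DTRpos library. In meningeal replicate 1, 11 cells with epithelial genes were left out, and free epithelial RNA remained in its T-cell states at 176 to 441 CPM summed over 6 markers, against 4.02 to 100 CPM in replicate 2.

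Stretches upstream of 6 of these genes are shown, taken from the genes called higher in the results below: Ndufa11, Atp5g3 and Cox5a in cycling T cells, Ndufc2 in astrocyte-like cells, and Cox8b and Cox6b2 in choroid plexus-like cells. Each is the 70 bases that end just before the RefSeq transcription start (GRCm38.p6), read 5′ to 3′ on the gene's strand. They lie at chr17:56717692-56717761 (plus strand), chr2:73911327-73911396 (minus), chr9:57521162-57521231 (plus), chr7:97399933-97400002 (plus), chr7:140900447-140900516 (minus) and chr7:4753095-4753164 (minus), in the order listed, and none overlaps an annotated exon. Capitals mark a match to a searched motif.
Ndufa11: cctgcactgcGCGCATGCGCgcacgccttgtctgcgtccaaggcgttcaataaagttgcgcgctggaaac
Atp5g3: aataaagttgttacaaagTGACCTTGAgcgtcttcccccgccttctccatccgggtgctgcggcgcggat
Cox5a: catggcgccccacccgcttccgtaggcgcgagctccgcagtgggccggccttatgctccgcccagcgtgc
Ndufc2: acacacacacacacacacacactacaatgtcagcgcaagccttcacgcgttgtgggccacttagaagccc
Cox8b: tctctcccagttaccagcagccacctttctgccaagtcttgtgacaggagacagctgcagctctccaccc
Cox6b2: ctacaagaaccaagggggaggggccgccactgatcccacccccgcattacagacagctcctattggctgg

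The match in Ndufa11 is to the NRF1 motif and the match in Atp5g3 is to the ERR motif, read on the other strand. Atp5g3 also holds an NRF1 match past its start, outside the stretch shown. NRF1 and the ERR receptors are known regulators of mitochondrial genes. Over windows of 300 bases around the start (250 before and 50 after), 68 of the 82 genes had 73 windows, and the NRF1 motif, GCGC and TGCGC with any base between them, was found on either strand in 18 of them (24.7%), against 4.6% of all 32851 windows. The YY1 motif AAGATGGC was in 10 windows (13.7% against 2.75%), the GABPA motif CCGGAAGT in 5 (6.85% against 3.89%) and the ERR motif TCAAGGTCA in 2 (2.74% against 0.423%). By complex, the NRF1 letters were in 8 of 33 windows of complex I, 6 of 18 of complex V and 1 of 14 of complex IV. A match is a stretch of letters and was not tested as a binding site, and neither of the longer motifs holds another of the 4.

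In the hippocampus, the choroid plexus-like cells, an epithelium that secretes cerebrospinal fluid and is known to be rich in mitochondria, held the most respiratory chain transcripts. The 82 genes together made up 73952 CPM in the DTRneg library and 80857 CPM in the DTRpos library. The other 6 classes lay between 22590 and 30810 CPM. In rising order of their mean, endothelial-like cells held 22590 and 23968 CPM (DTRneg first, here and below), mature oligodendrocyte-like cells 23470 and 24108, pericyte-like cells 25028 and 27365, neuroblast-like cells 27491 and 28666, OPC-like cells 28324 and 30810, and astrocyte-like cells 29399 and 30439. The library ranges of endothelial-like and mature oligodendrocyte-like cells overlapped, as did those of neuroblast-like and OPC-like cells and of OPC-like and astrocyte-like cells.

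**Figure D1:**
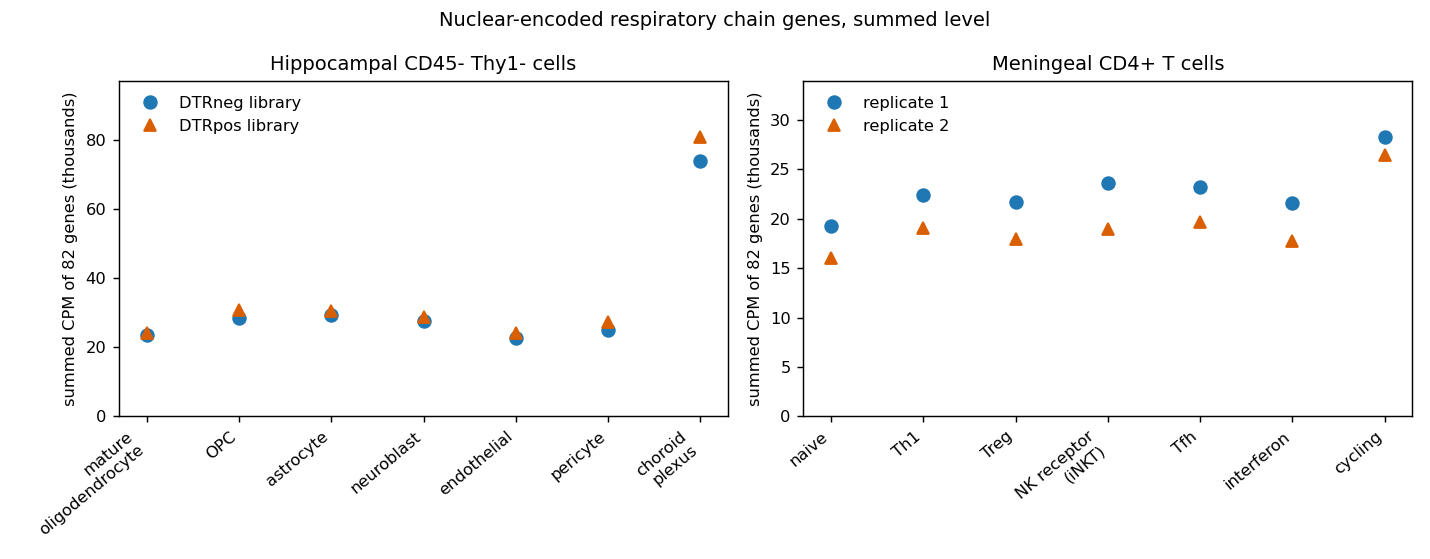
Summed level of the 82 nuclear-encoded respiratory chain genes, in units of 1000 CPM, in the 7 hippocampal classes (left, 1 point per library) and the 7 meningeal T-cell states (right, 1 point per replicate). The choroid plexus-like points, at 73952 and 80857 CPM, stand above all other hippocampal points, and the cycling T cells, at 28300 and 26463 CPM, above the other T-cell states of both replicates.

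Against mature oligodendrocyte-like cells, the myelin-forming cells and the largest class, 78 of the 82 genes could be tested, and all 78 were higher in choroid plexus-like cells. Over all 12832 genes tested, 52.4% were called in this comparison (22.4% higher and 30.0% lower). The median log2 difference was 1.76 over the respiratory chain genes and −0.61 over all genes. The 4 genes not tested, Cox6a2, Cox6c2, Cox7b2 and Cox8c, were too low in every class. Complex V and complex III genes had the largest median log2 differences, 2.30 and 2.26, followed by complex IV at 2.07, complex II at 1.65 and complex I at 1.41.

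The isoform genes of complex IV differed most. Cox8b, the heart and skeletal muscle form of subunit 8, was at 723 and 424 CPM in choroid plexus-like cells and at 0.273 and 0.0871 CPM in mature oligodendrocyte-like cells, where it rested on 10 and 2 UMIs. Within the libraries the choroid plexus-like level was 2648-fold (95% interval for counting error 1430 to 5550) and 4867-fold (1299 to 40959) higher, the latter 3245-fold against a floor of 3 counts. The mature oligodendrocyte-like cells held 1.44 and 1.85 Cox8b UMIs per 1000 UMIs of Ttr, a choroid plexus gene, against 2.14 and 1.48 in choroid plexus-like cells, so their few Cox8b UMIs were near the ratio at which the choroid plexus-like cells held both genes. Its UMIs were found in 56.4% of choroid plexus-like cells of the DTRneg library (median depth 3914 UMIs), against 0.159% of mature oligodendrocyte-like cells (median depth 7619 UMIs) and 0 of 184 neuroblast-like cells, which allows a share of up to 1.98%.

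Cox7a1, the muscle form of subunit 7a, was at 161 and 194 CPM in choroid plexus-like cells against 1.72 and 0.915 CPM in mature oligodendrocyte-like cells, a log2 difference of 7.25 (SE 0.26, adjusted p = 3.6e-171). Cox6b2, known as the testis form of subunit 6b, was at 238 and 247 CPM against 8.16 and 9.36 CPM, 29.2-fold (24.2 to 35.0) and 26.4-fold (18.5 to 36.9) higher. The choroid plexus-like levels of these isoforms exceeded those of the other 6 classes in both libraries. The widely used forms rose as well, by less: Cox8a went from 849 and 860 CPM to 4497 and 4870 CPM (log2 difference 2.76), Cox6b1 had a log2 difference of 2.03 and Cox6a1 one of 1.52.

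Atp5g1 encodes 1 of 3 proproteins of the same c-ring subunit of ATP synthase, and it was at 2795 and 3203 CPM in choroid plexus-like cells against 344 and 388 CPM, a log2 difference of 3.34 (SE 0.14, adjusted p = 5.9e-131). Atp5g3, which yields the same mature subunit, had a log2 difference of 2.80. The remaining gene of the trio, Atp5g2, stayed between 5.36 and 29.4 CPM in all 7 hippocampal classes. Ndufa4, a subunit of complex IV despite its name, was at 2529 and 2320 CPM against 440 and 383 CPM (log2 difference 2.88). At the lower end, Cox7a2l, which helps to join complexes III and IV, had a log2 difference of 0.67, and Ndufb4 of complex I one of 0.52.

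**Figure D2:**
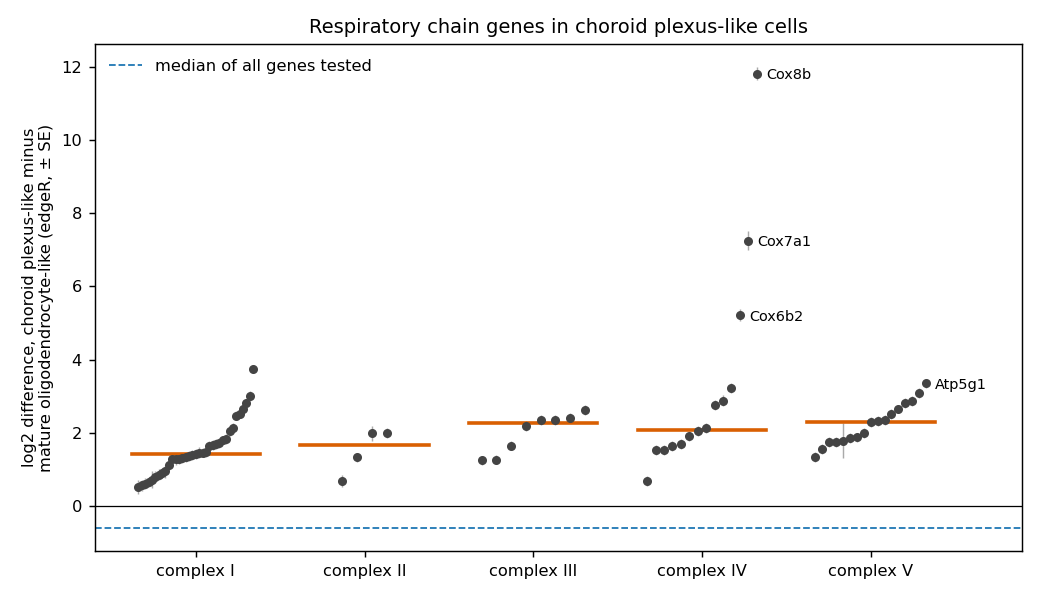
Log2 difference (± SE, edgeR) of each of the 78 tested respiratory chain genes between choroid plexus-like and mature oligodendrocyte-like cells, by complex, with each complex's median as a bar and the median of all genes tested, −0.61, as a dashed line. All points lie above 0, and the bars run from 1.41 for complex I to 2.30 for complex V.

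The partners outside the symbol rule rose in part. Cycs (cytochrome c) was at 760 and 771 CPM against 172 and 164 CPM, with a log2 difference of 2.53, Cyc1 had 1.91, Ndufab1 1.79 and Cox4i1, the common form of subunit 4, 1.61. Of the 13 mitochondrially encoded chain genes, 5 were higher and 1 was lower, with a median log2 difference of 0.17. Their summed level was 12900 and 11371 CPM in choroid plexus-like cells and 13540 and 12963 CPM in mature oligodendrocyte-like cells. Among the 17 glycolysis genes 16 were higher, and among the 13 genes of the TCA cycle 11 were higher. Assembly factors, which build the complexes, had 22 higher and 1 lower of 45, and regulators of mitochondrial biogenesis 2 higher and 1 lower of 11 tested.

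Ttr, the transthyretin gene, took 33.8% and 28.7% of all UMIs of choroid plexus-like cells, which lowers the CPM of every other gene there. With Ttr taken out of the total and with no TMM factor, which scales libraries to a common trimmed mean, the same number of 78 genes was called, with a median of 1.96. Without the TMM factor and with Ttr kept, 73 were called, and the median over all genes moved from −0.61 to −0.99. The distance of the respiratory chain median from the all-gene median was 2.37 with TMM and 2.38 without.

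Astrocyte-like cells, the glia that supply neurons and clear transmitters, also held more of these transcripts than mature oligodendrocyte-like cells. Of 78 genes, 45 were higher and 7 lower. Of all genes tested 71.3% were called (36.9% higher and 34.4% lower), so the share called was no larger than in the whole transcriptome. The surplus of higher genes depended on the settings. With no filter on low counts 20 of 82 genes were higher and 23 lower, beside 5121 higher and 6259 lower of all 28395 genes. The median log2 difference over the members then went from 0.29 to −0.013, while that over all genes went from 0.04 to −0.15. The median over the members was 0.024 without the DTRneg library and 0.15 without the DTRpos library. Both came from log CPM of the remaining library, with no filter on low counts and no model fit. They are therefore not the same measure as the 0.29. The higher genes numbered 15 of 35 in complex I, 3 of 4 in complex II, 7 of 8 in complex III, 8 of 14 in complex IV and 12 of 17 in complex V. Ndufc2 of complex I was at 1252 and 1190 CPM, against 343 and 309 CPM (log2 difference 1.87, SE 0.12, adjusted p = 2.9e-50). Its level in astrocyte-like cells was above that of the other 6 classes in both libraries, choroid plexus-like cells included (720 and 660 CPM).

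Ndufa12, another complex I subunit, was at 393 and 455 CPM against 146 and 173 CPM, with a log2 difference of 1.38. Cox5a, a heme-free subunit of complex IV, was at 571 and 614 CPM against 264 and 266 CPM, with a log2 difference of 1.13. Neither pair of groups overlapped. The largest falls were in Cox7a2l, at 113 and 125 CPM against 188 and 221 CPM (log2 difference −0.81), Ndufa3, at 371 and 337 CPM against 506 and 439 CPM (−0.45), and Ndufs6, at 187 and 202 CPM against 231 and 273 CPM (−0.40). Cox8b had 5.08 and 4.08 CPM in astrocyte-like cells, and 57.1 UMIs per 1000 Ttr UMIs in the DTRneg library against 2.14 in choroid plexus-like cells of that library. Higher levels were also called for 12 of 13 TCA cycle genes and 15 of 17 glycolysis genes, the latter summing to 11930 and 11613 CPM against 2726 and 2722 CPM. The glycolysis sum includes Aldoc, which is also a marker of astrocytes. Aldoc alone was at 4973 and 4905 CPM, against 30.8 and 30.2 CPM.

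In OPC-like cells, the precursors of oligodendrocytes, 8 of 78 genes were called higher and 49 lower than in mature oligodendrocyte-like cells, beside 74.0% of all genes called (39.6% higher and 34.4% lower). This direction depended on the scaling, since CPM were higher in OPC-like cells for most of the genes. With library-size scaling 53 were higher and 6 lower, while DESeq2 called 15 higher and 43 lower. Counts over all genes under these settings are not given here. The all-gene median moved from 0.06 to 0.74 between the edgeR scalings, and the median of the respiratory chain genes lay below it by −0.45 with TMM and −0.44 without. Under TMM, Ndufa4 rose from 440 and 383 CPM to 1043 and 979 CPM (log2 difference 0.62), Ndufa12 from 146 and 173 CPM to 288 and 381 CPM (0.38), and Atp5md, a small subunit that links ATP synthase dimers, from 266 and 225 CPM to 525 and 489 CPM (0.37). The call of Atp5md was lost without the library term (adjusted p = 0.063) and without the filter on low counts (adjusted p = 0.357). The lowest were Ndufa3, at 390 and 351 CPM against 506 and 439 CPM (−1.03), Ndufs7, which holds an iron-sulfur cluster of complex I, at 297 and 363 CPM against 389 and 435 CPM (−1.0), and Ndufv1, the NADH-binding subunit, at 106 and 120 CPM against 131 and 147 CPM (−0.98). All 13 mitochondrially encoded genes were lower, with a median of −1.29, and their sum was lower in CPM too, at 10537 and 9409 CPM.

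In endothelial-like cells, which line the vessels, 9 of 78 genes were higher and 42 lower than in mature oligodendrocyte-like cells, with 56.2% of all genes called (26.5% higher and 29.6% lower). Library-size scaling gave 16 higher and 28 lower, and DESeq2 15 higher and 35 lower, with counts over all genes not given here. The all-gene median moved from −0.14 with TMM to 0.08 with library-size scaling. The median of the respiratory chain genes lay below it by −0.21 and −0.20. Uqcrb of complex III rose from 296 and 273 CPM to 663 and 660 CPM (log2 difference 0.98), Atp5j from 455 and 451 CPM to 871 and 943 CPM (0.76) and Cox5a from 264 and 266 CPM to 502 and 486 CPM (0.67). Ndufs7 was lower at 201 and 222 CPM (−1.19), and Ndufb9 was lower at 341 and 384 CPM against 540 and 632 CPM (−0.93).

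Pericytes wrap the capillaries that endothelial cells line, and the pericyte-like cells differed from endothelial-like cells in which isoforms they carried. Ndufa4 was at 38.4 and 27.1 CPM in pericyte-like cells, on 15 and 7 UMIs, and at 647 and 598 CPM in endothelial-like cells, 16.9-fold (10.1 to 30.3) and 22.1-fold (10.6 to 55.3) higher there. Its edgeR log2 difference, pericyte-like minus endothelial-like, was −4.40 (SE 0.30, adjusted p = 3.9e-47). The other 6 hippocampal classes held 383 CPM or more of Ndufa4 in both libraries. The paralog Ndufa4l2, which is known to be induced by low oxygen, went the other way, at 2337 and 2811 CPM in pericyte-like cells against 6 and 10 UMIs in endothelial-like cells, 401-fold (183 to 1094) and 187-fold (101 to 393) higher. UMIs of Ndufa4 were found in 4.84% and 4.46% of pericyte-like cells and in 66.6% and 59.2% of endothelial-like cells, at similar median depths of 1978 and 1534 UMIs and 1953.5 and 1604 UMIs. UMIs of Ndufa4l2 were found in 96.2% and 94.3% of pericyte-like cells.

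Subunit 4 of cytochrome c oxidase showed an added isoform. Cox4i2, the form known from lung and from cells that sense oxygen, was at 1534 and 1580 CPM in pericyte-like cells against 3 and 5 UMIs in endothelial-like cells, 526-fold (179 to 2558) and 211-fold (89.6 to 652) higher. Cox4i1 was at 938 and 1227 CPM in pericyte-like cells and 918 and 1036 CPM in endothelial-like cells, a difference that did not pass the test (log2 difference −0.04, SE 0.16, adjusted p = 0.96). Cox6b2 was at 58.8 and 50.3 CPM in pericyte-like cells. Endothelial-like cells held 1 UMI of it in the DTRneg library, for a ratio of 60.5 (9.82 to 2492) or of 20.2 against a floor of 3 counts, and 0 in the DTRpos library, where the pericyte-like level was at least 11.2-fold higher against the same floor.

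**Figure D3:**
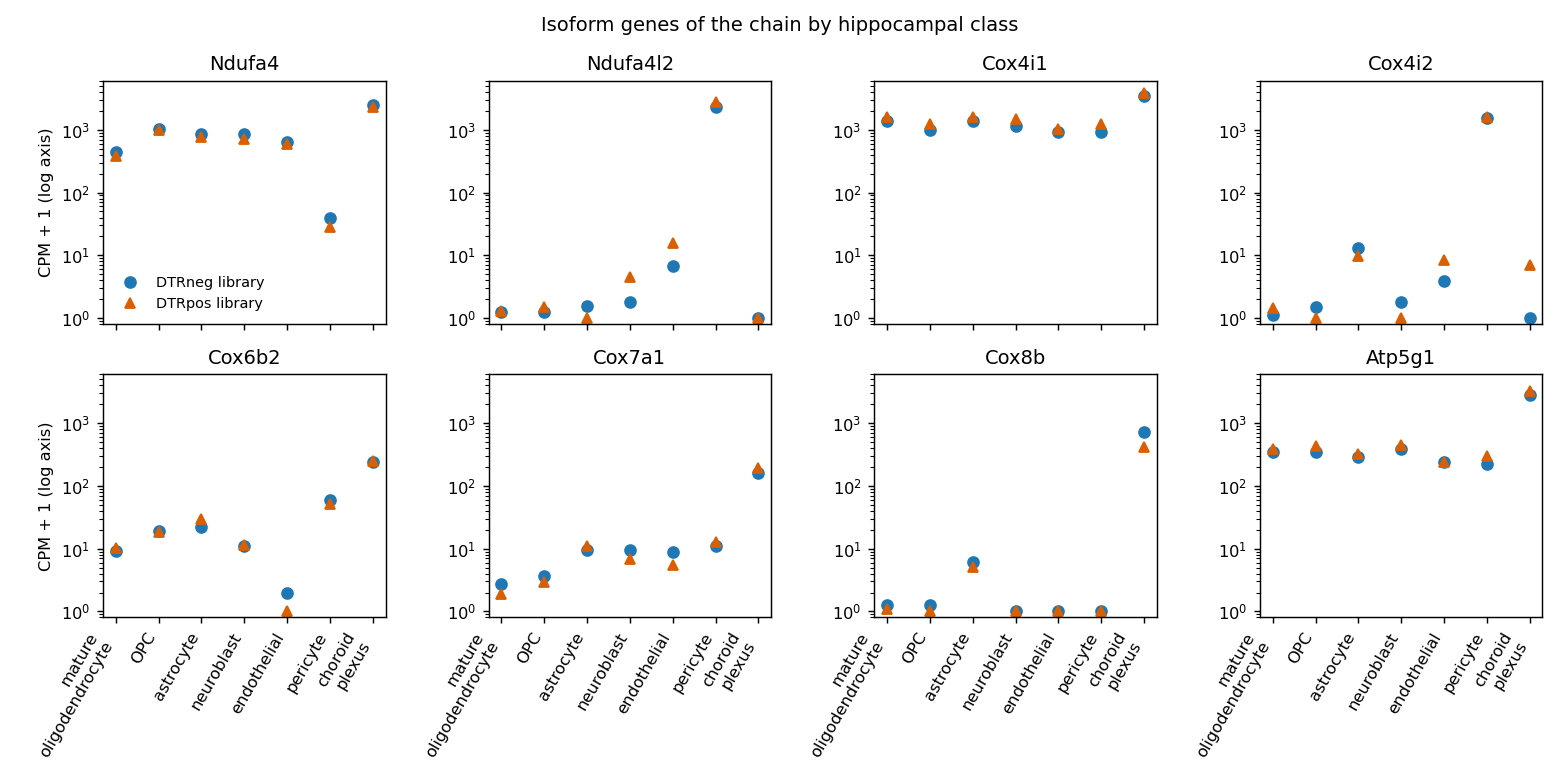
Level of 8 isoform genes of the chain (CPM + 1, log axis) in the 7 hippocampal classes, with 1 point per library. Pericyte-like cells are lowest for Ndufa4, at 38.4 and 27.1 CPM, and highest for Ndufa4l2 and Cox4i2, while choroid plexus-like cells are highest for Cox6b2, Cox7a1, Cox8b and Atp5g1.

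Over the whole set, 13 of 78 genes were higher and 11 lower in pericyte-like than in endothelial-like cells, at a background of 26.4% of all genes called (12.1% higher and 14.3% lower). Library-size scaling gave 26 higher and 8 lower, with the count over all genes not given here. The all-gene median moved from −0.0003 with TMM to 0.07 with library-size scaling. The median of the respiratory chain genes lay above it by 0.04 and 0.15. Cox8a rose to 1404 and 1584 CPM from 631 and 757 CPM (log2 difference 0.94) and Ndufs7 to 394 and 480 CPM from 201 and 222 CPM (0.86). Besides Ndufa4, the largest falls were in Cox5a, at 266 and 263 CPM against 502 and 486 CPM (−1.07), and Ndufa8, at 148 and 159 CPM against 267 and 252 CPM (−0.95). The TCA cycle list had 6 of 13 genes higher, as were Cyc1 (0.59) and Cycs (0.64).

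Neuroblast-like cells, which express genes of young neurons, were set against OPC-like cells, the other precursor class. Of 78 genes 16 were higher and 14 lower, a smaller share than the 52.3% of all genes called (22.5% higher and 29.7% lower). Under TMM scaling, the only one for which the split by complex is given, complex I had 4 higher and 13 lower of 35. Complex IV had 6 higher and 0 lower of 14, and complex V 5 higher and 0 lower of 17. Cox7a2l was at 413 and 465 CPM against 187 and 227 CPM (log2 difference 1.22), Uqcrh, a hinge protein of complex III, at 773 and 964 CPM against 516 and 641 CPM (0.72), and Cox5a at 587 and 580 CPM against 387 and 430 CPM (0.65). Uqcrb was lower, at 306 and 275 CPM against 514 and 537 CPM (−0.72), as were Ndufb4, with a log2 difference of −0.69, and Ndufs7, at 179 and 217 CPM against 297 and 363 CPM (−0.60). The counts depended on the scaling, with 14 higher and 38 lower under library-size scaling and 24 higher and 13 lower with DESeq2. Counts over all genes under these settings are not given here. The all-gene median moved from −0.10 with TMM to −0.24 with library-size scaling. The median of the respiratory chain genes lay above it by 0.05 and 0.04. The 2 measurements of each hippocampal class come from libraries of different genotype, and the library term takes out the difference that all classes share. The p-values in these comparisons therefore measure how far differences between classes vary between those libraries, with the spread estimated over all classes.

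The meningeal T-cell states held between 16049 and 28300 CPM of the 82 genes. Cycling T cells, placed by genes of cell division, were highest, at 28300 CPM in replicate 1 and 26463 CPM in replicate 2 (27382 ± 1299, SD, n = 2). Naive-like cells held 19240 and 16049 CPM, Th1-like cells 22409 and 19120 CPM, and Treg-like cells 21735 and 17911 CPM, and the NK receptor, Tfh-like and interferon-stimulated states lay between 17703 and 23610 CPM. Replicate 1 was above replicate 2 in all 7 states. Cycling cells exceeded the mean of naive-like, Th1-like and Treg-like cells by 0.50 on the log2 scale (0.42 and 0.58 in the replicates). With 2 replicates an exact permutation test of this sum cannot pass 0.05.

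Gene by gene, 19 of 74 tested genes were called in cycling cells, all higher, against 12.8% of all 7407 genes (9.10% higher and 3.66% lower). They were 7 of 34 in complex I, 1 of 4 in complex II, 0 of 8 in complex III, 4 of 11 in complex IV and 7 of 17 in complex V. The median log2 difference was 0.44 over the 74 genes and −0.03 over all genes. Cox5a was at 735 and 864 CPM in cycling cells, against 303 and 312 CPM in naive-like, 441 and 474 CPM in Th1-like and 402 and 373 CPM in Treg-like cells (log2 difference from the mean of the 3 states 1.04, SE 0.15, adjusted p = 0.00038). Cox5b was at 879 and 702 CPM, with a log2 difference of 0.99 (SE 0.23, adjusted p = 0.012), and Ndufb8 was at 350 and 319 CPM, with one of 0.93 (SE 0.19, adjusted p = 0.0048). For each of these genes both cycling values lay above the mean of the 3 states in both replicates.

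Atp5b, the catalytic beta subunit of ATP synthase, was at 857 and 889 CPM (0.80), Atp5g3 at 1078 and 1152 CPM (0.91), and Sdhb, the iron-sulfur subunit of complex II, at 327 and 394 CPM (0.85). The other 13 called genes were Cox7a2, Cox8a, Ndufv1, Ndufs6, Ndufb6, Ndufb7, Ndufa9, Ndufa11, Atp5a1, Atp5c1, Atp5j, Atp5o and Atp5pb, with log2 differences of 0.50 to 0.88. Sdha, the flavoprotein partner of Sdhb, was at 115 and 177 CPM in cycling cells and did not pass (−0.07, adjusted p = 0.91). Cyc1 was called (0.60, adjusted p = 0.049) while Cycs, at 375 and 231 CPM, was just short of it (1.13, adjusted p = 0.052). Higher levels were called for 4 of 13 TCA cycle genes and 5 of 13 glycolysis genes, beside 0 of 9 mitochondrially encoded genes (median −0.26), 1 of 35 assembly factors, which was lower, and 0 of 7 regulators.

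**Figure D4:**
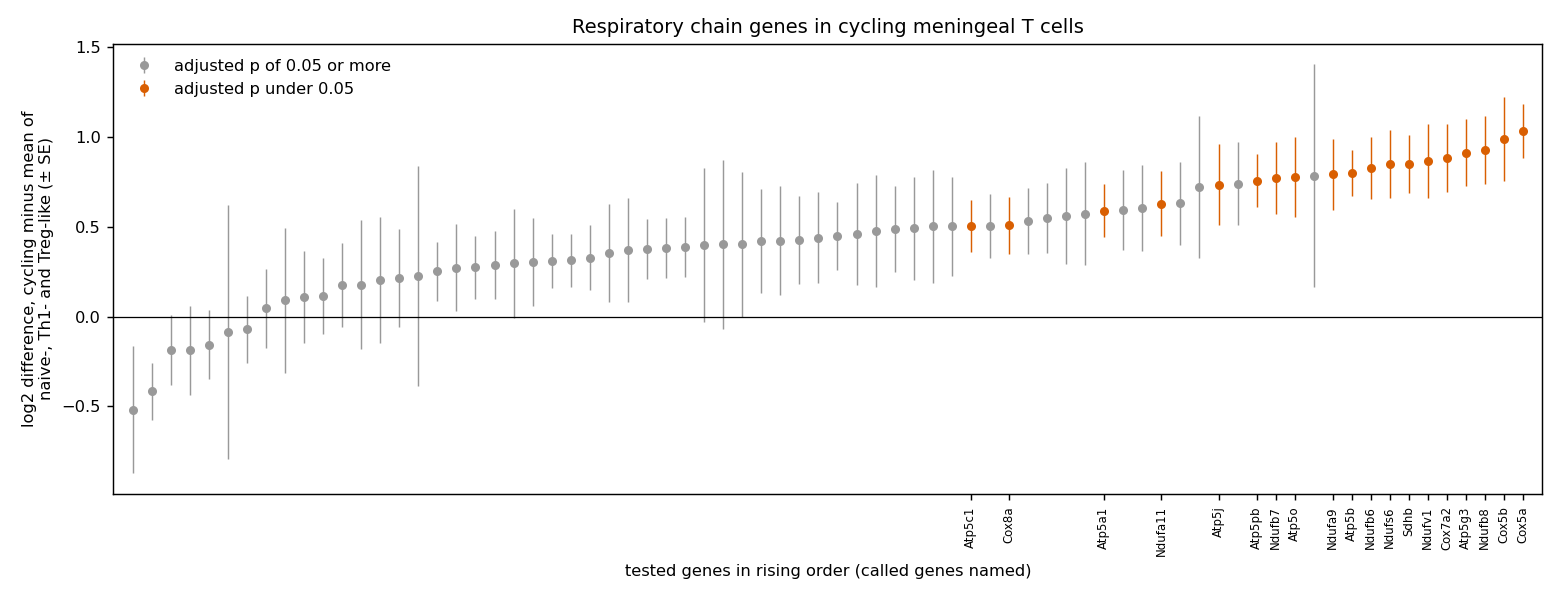
Log2 difference (± SE, edgeR) between cycling T cells and the mean of naive-like, Th1-like and Treg-like T cells for each of the 74 tested respiratory chain genes, in rising order, with genes called at an adjusted p under 0.05 in orange and named. The 19 called genes all lie above 0, from 0.50 to 1.04.

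With the replicate as a block, which uses that both states of a pair come from the same animals, 1898 of all 7407 genes were called. Of the 74 respiratory chain genes 50 were called, 48 higher and 2 lower (Cox7a2l by −0.50 and Ndufa6 by −0.41). Depth moves with this result: cycling cells had median depths of 7308 and 4921.5 UMIs, against 3000 and 1580 UMIs in naive-like cells. Within cycling cells the summed level itself rose with depth, from 19970 CPM at 2000 to 4000 UMIs to 30244 CPM at 8000 UMIs or more in replicate 1, and from 22026 to 29252 CPM in replicate 2. At 2000 to 4000 UMIs, where only 7 and 26 cycling cells lay, naive-like, Th1-like and Treg-like cells together held 21692 and 19033 CPM. At 4000 to 8000 UMIs cycling cells held 25376 CPM (12 cells) and 24706 CPM (29 cells), against 21735 CPM (153 cells) and 20652 CPM (49 cells) in those 3 states, so cycling cells were lower in replicate 1 and higher in replicate 2 in the shallower bin and higher in both replicates in the deeper one. Thinning each cell to 1000 UMIs kept all 39 and 82 cycling cells and 184 and 302 of 190 and 328 naive-like cells. With the thinned cells 1 of 72 genes was called, beside 149 of all 4055 genes tested. The median log2 difference over the members fell from 0.44 to 0.15, beside −0.06 over all genes with thinned cells. It was above 0 for 51 of 72 members, against 67 of 74 without thinning. The log2 difference of the sum was 0.33 with thinned cells, and Cox5b (adjusted p = 0.196) and Ndufb8 (adjusted p = 0.303) were no longer called. With the epithelial cells kept, 10 respiratory chain genes were called, beside 792 of all 7502 genes, and Cox5b was not among the 10 (adjusted p = 0.104). The part of the remaining epithelial RNA, 176 and 12.5 CPM in cycling cells against 434 and 5.37 CPM in naive-like cells, was not tested.

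Between naive-like and Th1-like cells, 0 of 74 genes were called with edgeR, beside 2.81% of all genes (1.12% higher and 1.69% lower), and 1 had an unadjusted p under 0.05. DESeq2 also called 0. With the replicate block 5 of 74 were called, beside 821 of all 7407 genes, so the share called was no larger than over all genes. Cox7a2l was higher in naive-like cells, at 424 and 253 CPM against 280 and 170 CPM (log2 difference 0.78, adjusted p = 9.77e-06 with the block), as were Ndufa6 (0.40) and Atp5g2 (0.38), while Uqcrb (−0.50) and Cox5a (−0.39) were lower. Between Treg-like and Th1-like cells 0 of 74 were called with edgeR, with DESeq2 and with the block, 0 had an unadjusted p under 0.05 without the block, and the median log2 difference was −0.11. Of all genes 1.03% were called there without the block (0.716% higher and 0.311% lower), and 450 of 7407 with it. The labels put the replicates in different genotypes, so p-values between T-cell states measure the spread between these 2 samples.

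Isoform genes were also read in the T cells. Cox8b, Cox6a2 and Cox8c had 0 UMIs in all 7 T-cell states of both replicates, and Cox7a1 and Cox6b2 stayed at or below 8.51 CPM. Atp5g2 was at 375 to 885 CPM in T cells, where Atp5g1 was at 147 to 321 CPM and Atp5g3 at 430 to 1152 CPM. Levels in meninges and hippocampus come from separate tables and were not compared by a test. For each complex from I to V, a pair of genes was named by mean CPM over all libraries, which is not adjusted for length: Ndufa13 and Ndufa7, Sdhb and Sdha, Uqcrh and Uqcr11, Cox8a and Cox6c, and Atp5e and Atp5h. Their choroid plexus-like levels in the DTRneg library were 1520 and 768 CPM, 247 and 112 CPM, 1639 and 2119 CPM, 4497 and 2521 CPM, and 2205 and 1952 CPM.

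The last comparison, DTRpos against DTRneg, asks how hippocampal cells differ after regulatory T cells are targeted by the toxin. It has 1 library per group, so there is no test, intervals cover counting error only, and genotype, library and the pool of mice cannot be told apart. The log2 ratio of the summed level was 0.04 (0.03 to 0.04) in mature oligodendrocyte-like, 0.12 in OPC-like, 0.05 in astrocyte-like, 0.06 in neuroblast-like, 0.09 in endothelial-like, 0.13 in pericyte-like and 0.13 (0.10 to 0.16) in choroid plexus-like cells. With TMM-scaled CPM, the ratios in mature oligodendrocyte-like and choroid plexus-like cells turned to −0.04 and −0.19. The mitochondrially encoded genes had log2 ratios of −0.06, −0.16, −0.21, −0.25, −0.12, −0.00 and −0.18 in the same order of classes.

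Few single genes differed by 1.5-fold or more. In mature oligodendrocyte-like cells 4 of 78 genes with at least 20 UMIs did, all lower in DTRpos (10.3% of all genes, 5.63% higher and 4.65% lower): Cox7c, Sdhd, Cox7a1 and Cox6c2. In OPC-like cells 1 of 76 did, Atp5g2, higher (10.0%, 4.81% and 5.19%), in astrocyte-like cells 2 of 79, Atp5g2 higher and Sdhd lower (11.1%, 6.22% and 4.84%), and in neuroblast-like cells the same 2 of 76 (16.9%, 8.20% and 8.70%). In endothelial-like cells 0 of 74 did (18.3%, 9.67% and 8.65%). In pericyte-like cells 4 of 75 did, Ndufa9 and Ndufb4 higher and Cox7c and Sdhd lower (23.8%, 10.9% and 12.9%). In choroid plexus-like cells 5 of 77 did, Sdhb and Ndufs6 higher and Cox8b, Cox7c and Ndufb4 lower (33.4%, 17.2% and 16.2%). In each class the share was below that of all genes. Atp5g2 had at least 20 UMIs in 4 classes, and 0 of its intervals for counting error lay above 0.

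Cox7c, a small subunit of complex IV, was lower in DTRpos in all 7 classes. It was at 812 CPM in DTRneg and 516 CPM in DTRpos mature oligodendrocyte-like cells (log2 ratio −0.65, −0.68 to −0.62), and at 1979 and 1213 CPM in choroid plexus-like cells (−0.71). Over the 7 classes its log2 ratio lay between −0.71 and −0.41, with 7 of 7 intervals below 0. The meningeal replicates, which carry no DTR, also differed in Cox7c, with 513 to 751 CPM in the 7 states of replicate 1 and 220 to 373 CPM in those of replicate 2. The part of library handling in the hippocampal difference was not tested. Sdhd, a membrane anchor of complex II, had log2 ratios of −1.14 to −0.21, with 4 of 7 intervals below 0. Its level in mature oligodendrocyte-like cells was 34.6 and 21.7 CPM.

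Atp5k, Atp5l, Ndufa12 and Cox4i1 moved by less than 1.5-fold in every class, and most of their intervals left out 0. Atp5k had log2 ratios of −0.51 to −0.26, with 6 of 7 intervals below 0, while Atp5l ran from 0.29 to 0.46, with 5 intervals above 0, and Ndufa12 from 0.21 to 0.57, with 6 above 0. Cox4i1 ran from 0.14 to 0.39, with 7 intervals above 0. Sdhb, Ndufs6 and Cox8b went past 1.5-fold in choroid plexus-like cells, with wider intervals. Sdhb was at 247 CPM in DTRneg and 430 CPM in DTRpos (log2 ratio 0.80, 0.40 to 1.19), and Ndufs6 at 395 and 607 CPM (0.62, 0.28 to 0.94). Cox8b was at 723 and 424 CPM there (−0.77, −1.14 to −0.42), with 42 cells in the DTRpos library. TMM scaling shifts every log2 ratio of the choroid plexus-like class by −0.32, which turns Ndufa12 and Cox4i1 to −0.03 and −0.18 there and brings Sdhb and Ndufs6 to 0.48 and 0.30, and it shifts those of the other classes by −0.08 to −0.02, which turned no direction of the genes plotted. The 7 classes come from the same 2 libraries, so they are not 7 repeats of a difference between genotypes.

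**Figure D5:**
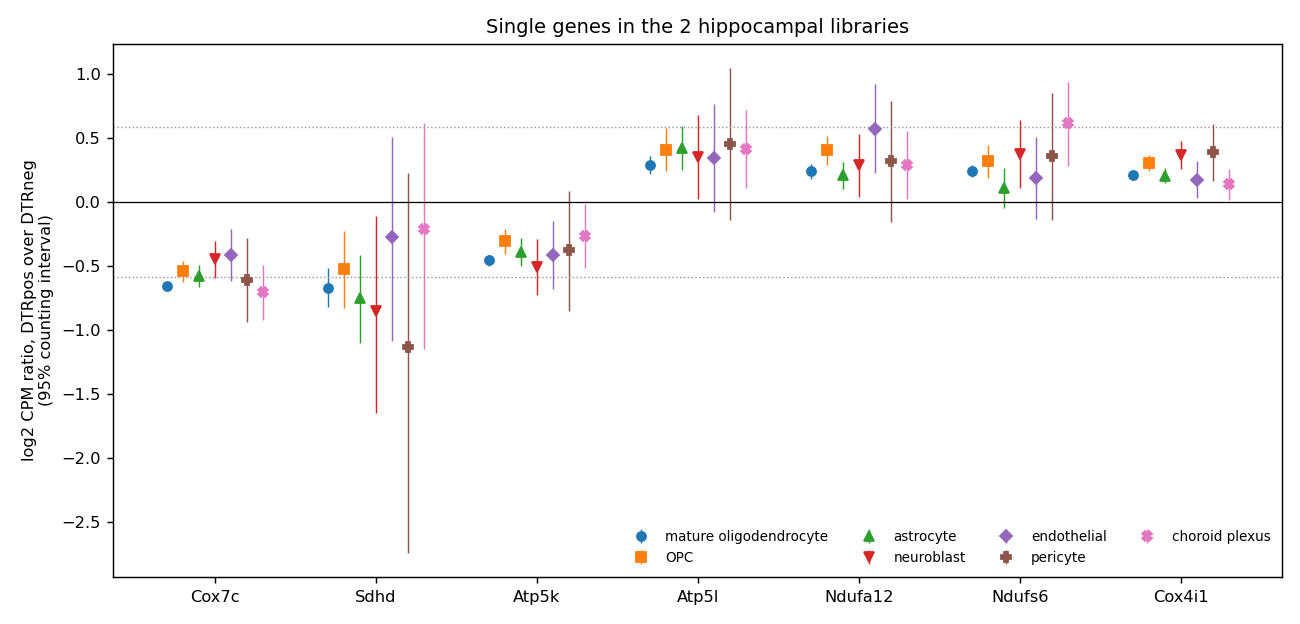
Log2 ratio of CPM, DTRpos over DTRneg, with its 95% interval for counting error, for 7 genes in the 7 hippocampal classes, with dotted lines at 1.5-fold. All 7 points of Cox7c lie below 0, between −0.71 and −0.41, and those of Atp5l, Ndufa12, Ndufs6 and Cox4i1 lie above 0 before TMM scaling, which turns the choroid plexus-like points of Ndufa12 and Cox4i1 below 0.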

How the data were processed

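Single-cell UMI counts per gene were deposited by the authors as whole-number counts with no normalization, with Cell Ranger 4.0.0 for the Foxp3-GFP meninges, 6.0.0 for the B6.WT meninges and 6.1.0 for the hippocampus, as stated per the file headers. The submitters' processing notes name Cell Ranger 6.1.0, Seurat and mm10. Hashtag counts and T-cell receptor tables, also deposited by the authors, selected meningeal cells. The labels name a 3′ kit and the series' design a 5′ kit for the T cells, so the chemistry of the meningeal libraries is not settled here. Those libraries' hashtags were matched by name, since the sequence in the labels differed from the tables.

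Cells needed 500 genes and under 10% (meninges) or 15% (hippocampus) mitochondrial UMIs, meningeal cells a hashtag with 10 counts and 5 times the next, and Scrublet doublets (242 and 158 cells) were removed in the hippocampus. Totals over all barcodes were 60890248 and 68830571 UMIs in the meninges and 53484704 and 35814655 UMIs in the hippocampus. The meningeal tables shared 554 barcodes and the hippocampal pair shared 18. UMIs of marker genes placed the cells, with thresholds set after marker counts were seen, and 11 meningeal cells with 20 or more epithelial UMIs were left out, also chosen after seeing the data. The members and lists were chosen with earlier results of these data known. Atp5o has 2 gene IDs, which were summed, and how reads of near-identical copies were counted is not given in the sources used here.

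Counts were summed per class and library and tested with edgeR 4.0.16 (R 4.3.3, quasi-likelihood test, TMM scaling, filterByExpr, Benjamini-Hochberg over all genes tested, called at an adjusted p under 0.05), over all T-cell states, or over all hippocampal classes with the library as covariate. The scripts were tested on simulated data. DESeq2 1.42.0 and other settings were alternatives. Same-numbered meningeal samples come from the same mice, and deviations from the group means correlated between states over 7447 genes in all 21 pairs of states (r from 0.20 to 0.59). DTRpos against DTRneg was given as a log2 ratio of CPM (counts per 1000000 UMIs) with an exact conditional binomial 95% interval, and shares of cells with exact (Clopper-Pearson) intervals. The text names, per comparison, the 3 called members with the largest rise and fall at a mean of at least 50 CPM, the 2 highest of each complex, the isoform families and the chain genes outside the rule, and other genes were chosen after their values were seen. 1 gene that this rule picks is not reported here. Levels were not adjusted for gene length, so the order of levels within a complex served to choose the genes named and is no comparison of their expression.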

Additional observations from a re-analysis of the deposited data

How the results depend on the processing

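Of 402 recomputed values of single named genes, 396 held their direction and, where the setting gave a p-value, their side of the threshold. The other 6 lost significance. Settings with 1 library left out gave no p-value and were checked for direction only. In cycling T cells the number of members called was 50 with the replicate block, 1 with cells thinned to 1000 UMIs and 10 with epithelial cells kept. Over all genes these settings called 1898 of 7407, 149 of 4055 and 792 of 7502. In naive-like against Th1-like cells the number of members called was 5 with the replicate block, beside 821 of all 7407 genes. The block changed no call of a member between Treg-like and Th1-like cells. In neuroblast-like against OPC-like cells, 19 members were called without the library term and 16 with thinned cells. Without TMM 52 were called, with or without Ttr. The main setting called 6705 of all 12832 genes there, and the all-gene counts at the other settings are not given here. Whether these member counts moved with the background was therefore not tested. The median over the members changed sign in naive-like against Th1-like cells with epithelial cells kept (0.092), in astrocyte-like cells with no filter on low counts (−0.013) and in OPC-like cells without TMM (0.29, with or without Ttr). For DTRpos against DTRneg, TMM-scaled CPM gave −0.044 in mature oligodendrocyte-like cells, −0.192 in choroid plexus-like cells and a median of 0.0053 over the classes. Genes past the fold over all classes numbered 18, with 39 in thinned cells and 2 at 2-fold. The log2 excess of the sum in cycling cells was 0.331 with thinned cells, and 0.42 to 0.58 when either replicate was left out. The median over the members of that comparison was 0.15 with thinned cells, 0.55 without replicate 1 and 0.32 without replicate 2. The median for choroid plexus-like cells was 1.16 without the DTRneg library and 1.62 without the DTRpos library. Medians with a replicate or library left out came from log CPM, with no filter on low counts and no model fit. They are therefore not the same measure as the main medians. The causes were not tested. The 42 choroid plexus-like cells of the DTRpos library limit what could be seen there.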
